A study of Mus musculus with 6 samples.

Results

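The genes described here are Myc, its dimerisation partners and antagonists, and factors that build ribosomes in the nucleolus. They were chosen by name as 52 gene symbols, and all 52 are among the 15824 genes listed in the expression table and among the 11817 genes tested. By role, 7 belong to the Myc network, 7 to the RNA polymerase I machinery, 5 are abundant nucleolar proteins, 3 and 4 belong to the box C/D and box H/ACA ribonucleoproteins, and 15 and 11 act on the small and the large ribosomal subunit. RNA was sequenced from cells that the labels call alveolar macrophages, isolated by flow sorting from mice aged 8 weeks. Alveolar macrophages are phagocytes that live in the air sacs of the lung, and markers of the cell type are given below. There were 3 libraries from Men1 knockout (KO) mice and 3 from wild-type (WT) mice, all unchallenged as far as the labels say. Men1 encodes menin, a scaffold protein of histone methyltransferase complexes. The strain, the knockout allele and how the deletion was targeted to cells are not stated in the labels.

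Myc is a transcription factor that pairs with Max and binds the DNA sequence CACGTG, the E-box, at many genes for growth. The Mxd proteins, Mxi1 and Mnt also pair with Max, bind the same sequence and repress, and Mlx pairs with some of these antagonists and with the glucose-responsive Mondo proteins. Genes for RNA polymerase I, which transcribes ribosomal RNA, and for the nucleolar factors that modify, cut and fold this RNA into the subunits are textbook targets of Myc. The question asked of these genes was whether the nucleolar and RNA polymerase I factors followed Myc.

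The E-box was searched in the RefSeq promoter windows of build GRCm38.p6, which run from 250 bases before to 50 bases after each annotated start. Windows were found for 46 of the 52 genes. Myc, Npm1, Fbl, Rrp12, Bop1 and Rrs1 were not analysed here for promoter sequence. CACGTG, which reads the same on both strands, was in the windows of 12 of the 46 genes (26.1%), against 11.9% of 9537 tested genes with a window and 7.15% of all 32851 windows. The related sequence CACGCG or its complement CGCGTG was in 16 of the 46 (34.8%), against 1905 of the 9537 tested genes and 9.27% of all windows, and a window can hold both sequences. The 250 bases before the start are shown for Rrn3, the one gene of the set with a pair of E-boxes there, for Nop2, and for the antagonist gene Mxd4, which moved the other way in the results below. They are written 5′ to 3′ on the gene's strand, with E-boxes in capitals. The coordinates are chr16:13780449-13780698 on the plus strand, chr6:125131633-125131882 on the plus strand and chr5:34187711-34187960 on the minus strand.
Rrn3: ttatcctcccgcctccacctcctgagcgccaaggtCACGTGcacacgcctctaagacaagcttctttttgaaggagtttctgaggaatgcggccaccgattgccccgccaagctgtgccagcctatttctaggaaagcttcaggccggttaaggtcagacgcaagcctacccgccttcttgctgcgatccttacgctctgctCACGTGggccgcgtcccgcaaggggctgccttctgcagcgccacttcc
Nop2: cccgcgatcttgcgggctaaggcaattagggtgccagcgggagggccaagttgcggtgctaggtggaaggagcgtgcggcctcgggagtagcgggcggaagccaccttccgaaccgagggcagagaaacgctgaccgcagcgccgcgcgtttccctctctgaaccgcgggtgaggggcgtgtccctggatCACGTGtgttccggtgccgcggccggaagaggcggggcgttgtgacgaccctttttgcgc
Mxd4: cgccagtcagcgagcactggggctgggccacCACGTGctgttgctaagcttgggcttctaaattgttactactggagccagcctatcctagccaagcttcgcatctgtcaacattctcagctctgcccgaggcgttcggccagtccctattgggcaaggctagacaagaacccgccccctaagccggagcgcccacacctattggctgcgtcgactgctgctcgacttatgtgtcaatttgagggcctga
The Rrn3 E-boxes begin 215 and 48 bases before the start, that of Nop2 begins 60 and that of Mxd4 219 bases before it.

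In Wdr43, Tsr1, Utp4, Utp20, Ltv1 and Pes1 the E-box lay within the 50 bases after the annotated start, in Max it spanned the start, and in Mlx and Mnt it began 40 and 123 bases before it. The 30 bases around the E-box are shown for Max, for Wdr43, Tsr1 and Utp4, which fell in KO libraries, and for Pes1, which did not. Their coordinates are chr12:76962234-76962263 on the minus strand and chr17:71616220-71616249, chr11:74898092-74898121, chr8:106893643-106893672 and chr11:3963965-3963994 on the plus strand.
Max: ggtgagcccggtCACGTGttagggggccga
Wdr43: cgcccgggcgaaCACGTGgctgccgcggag
Tsr1: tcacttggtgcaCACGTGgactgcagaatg
Utp4: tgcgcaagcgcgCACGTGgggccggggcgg
Pes1: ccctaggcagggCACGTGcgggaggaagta
A match is a description of the letters and does not show binding.

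Some facts of the libraries touch every result below. Total counts were 19955232 to 20151985 per library, and Men1 fell 3.80-fold, with 7.88 ± 0.458 CPM in KO and 29.98 ± 1.20 CPM in WT (SD, n = 3 each; CPM are counts scaled to the library's TMM-adjusted total). Libraries of 1 group differed little, with a chi-square per gene of 1.37 to 1.59 within groups and 59.2 to 62.0 between groups. The labels do not say whether they came from separate mice, so every p-value reflects library-to-library spread alone, and that spread may be technical. The summed CPM of the Y-linked genes Ddx3y, Eif2s3y, Kdm5d and Uty was at most 0.102 in KO libraries and 162 to 169 in WT libraries. Genotype and sex of the source animals therefore cannot be told apart, which bears most directly on the X-linked genes Dkc1 and Utp14a.

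Of the 52 genes, 32 were lower and 8 higher in KO, and 12 did not pass an adjusted p of 0.05 (the quasi-likelihood test of edgeR, adjusted by Benjamini-Hochberg over all tested genes and used throughout). Among all tested genes 34.9% were lower and 34.4% higher, 69.2% in all, while 61.5% of the 52 were lower and 15.4% higher. Their median log2 fold change was -0.21, against 0.00 (0.0014) for all tested genes. The changes were small: 5 of the 52 fell at least 1.5-fold (Myc, Noc3l, Nolc1, Wdr43 and Dkc1) and 1 rose as much (Mxd4). These shares, 9.62% and 1.92%, compare with 9.39% and 8.40% of all tested genes (17.8% in both directions), so at that size the fallen share was near the background. When the biological coefficient of variation was set to 0.1, wider than the 1.66% estimated here, 21 fell (40.4%, against 18.8% of all genes) and 3 rose (5.77%, against 18.4%, with 37.3% called in all). DESeq2 called 29 lower and 7 higher, where it called 50.6% of all 13666 genes it tested, 25.5% lower and 25.2% higher. Without a call, the CPM ranges of the groups did not overlap for 42 of the 52 genes (80.8%, against 71.2% of all tested genes). Of these, 34 were lower and 8 higher in KO, against 35.8% and 35.4% of all tested genes. In bulk RNA, fewer cells of a type and less RNA per cell cannot be told apart.

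**Figure D1:**
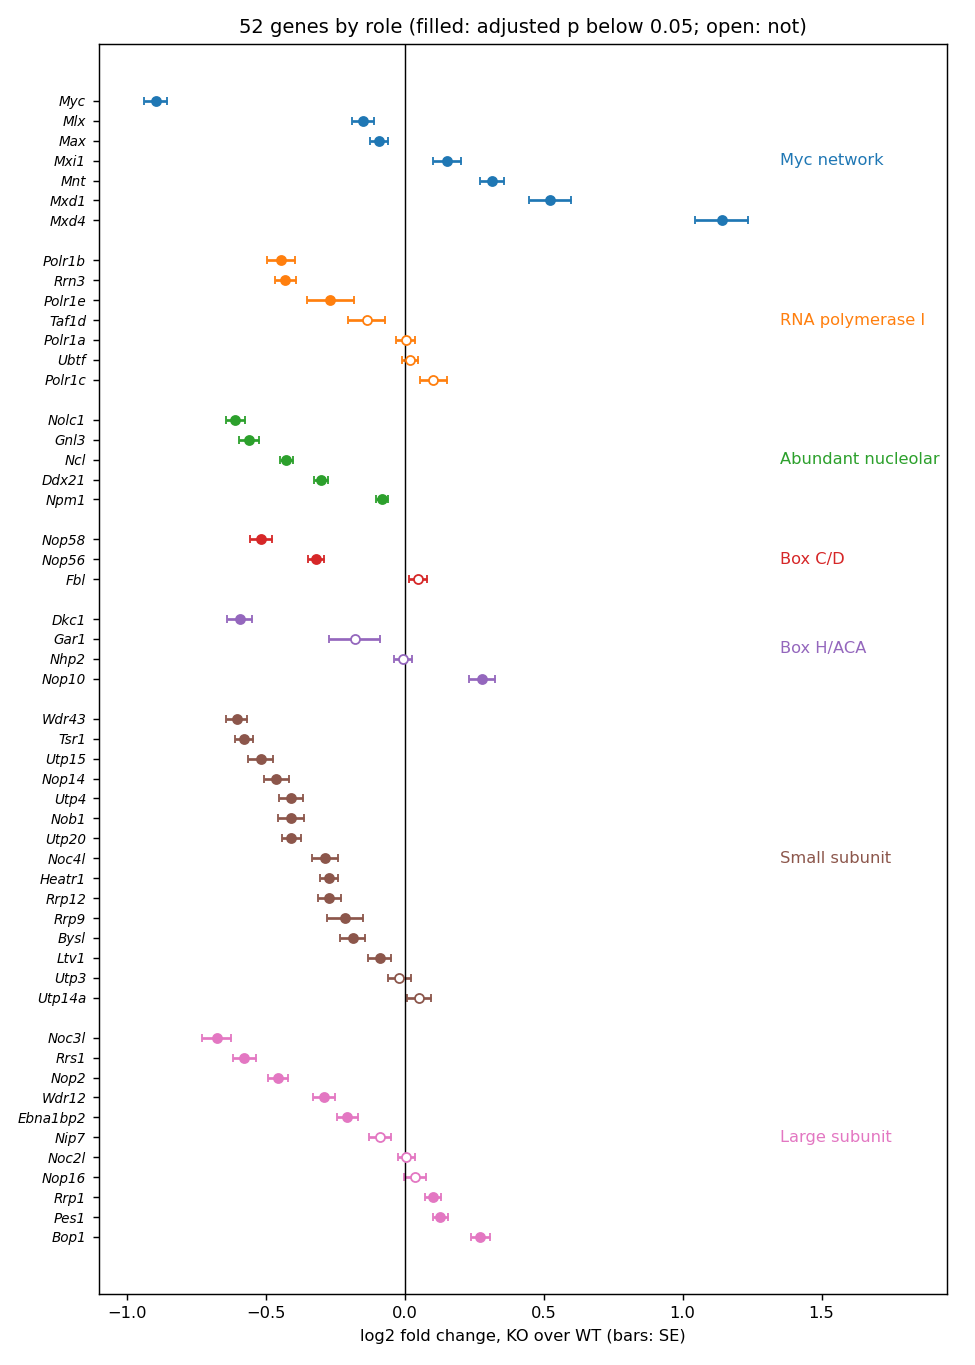
Fitted log2 fold change (KO over WT) of the 52 genes on the x axis, one row per gene, grouped by role, with bars for the standard error. Filled points passed an adjusted p of 0.05 and open points did not. Most points outside the Myc network lie left of 0, down to -0.68 for Noc3l.

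Myc fell, and Mxd4, Mxd1, Mnt and Mxi1 rose, though Mxi1 turned on log2(TPM + 1). Myc (chromosome 15, 61985341 to 61990361) had 38.0, 37.4 and 35.2 CPM in KO libraries, against 69.4, 70.3 and 66.1 CPM in WT libraries. The groups were far apart, and the fall was 1.86-fold (log2 -0.90, SE 0.0411; edgeR adjusted p = 1.86e-20). Max, the obligate partner, stayed close to its WT level with 88.4, 84.5 and 84.7 CPM in KO libraries, against 92.9, 91.2 and 90.6 CPM in WT libraries (log2 -0.09, SE 0.0317; edgeR adjusted p = 0.0101, but 0.0732 with DESeq2). Mlx was lower by a similar small step, 56.0, 59.7 and 55.8 CPM in KO libraries against 64.1, 65.5 and 60.6 CPM in WT libraries (log2 -0.15, SE 0.0391; edgeR adjusted p = 0.00101). Neither Max nor Mlx overlapped between the groups, but the ranges lay next to each other.

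Mxd4 rose most of the set, with 11.01, 11.95 and 11.72 CPM in KO libraries, against 5.10, 4.77 and 5.85 CPM in WT libraries (2.20-fold; log2 1.14, SE 0.0959; edgeR adjusted p = 6.21e-13). Mxd1, the antagonist classically induced when myeloid cells differentiate, had 14.8, 15.5 and 17.2 CPM in KO libraries, against 11.3, 11.2 and 10.7 CPM in WT libraries (log2 0.52, SE 0.0747; edgeR adjusted p = 1.42e-07). Both groups were fully separate for these genes, and the KO libraries were high in every case. Mnt, the antagonist found in most cells, had 42.2, 44.1 and 41.6 CPM in KO libraries, against 34.8, 34.0 and 34.0 CPM in WT libraries (log2 0.32, SE 0.0439; edgeR adjusted p = 8.28e-08). Mxi1 had 32.7, 32.3 and 32.6 CPM in KO libraries and 28.9, 31.1 and 27.8 CPM in WT libraries (log2 0.15, edgeR adjusted p = 0.00698), and its direction turned to -0.03 on log2(TPM + 1). The call for Mxi1 was also lost without WT replicate 3 (edgeR adjusted p = 0.0513) and with DESeq2 (adjusted p = 0.0667).

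Levels of different genes were compared in TPM, which scale for transcript length. The ratio of Myc to Mxd4 in TPM was 1.41, 1.29 and 1.24 in KO libraries, against 5.54, 6.06 and 4.63 in WT libraries. Against the summed TPM of Mxd1, Mxd4, Mxi1 and Mnt, Myc stood at 0.423 ± 0.0181 in KO and 1.08 ± 0.0264 in WT (SD, n = 3 each). Its ratio to Max was 0.343 ± 0.0113 in KO and 0.595 ± 0.0189 in WT (SD, n = 3 each). No ratio overlapped between the groups. The exact two-sided permutation test gave p = 0.1 for each, the smallest that 3 against 3 libraries allow, and 0.1 after adjustment over the 10 ratios computed.

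**Figure D2:**
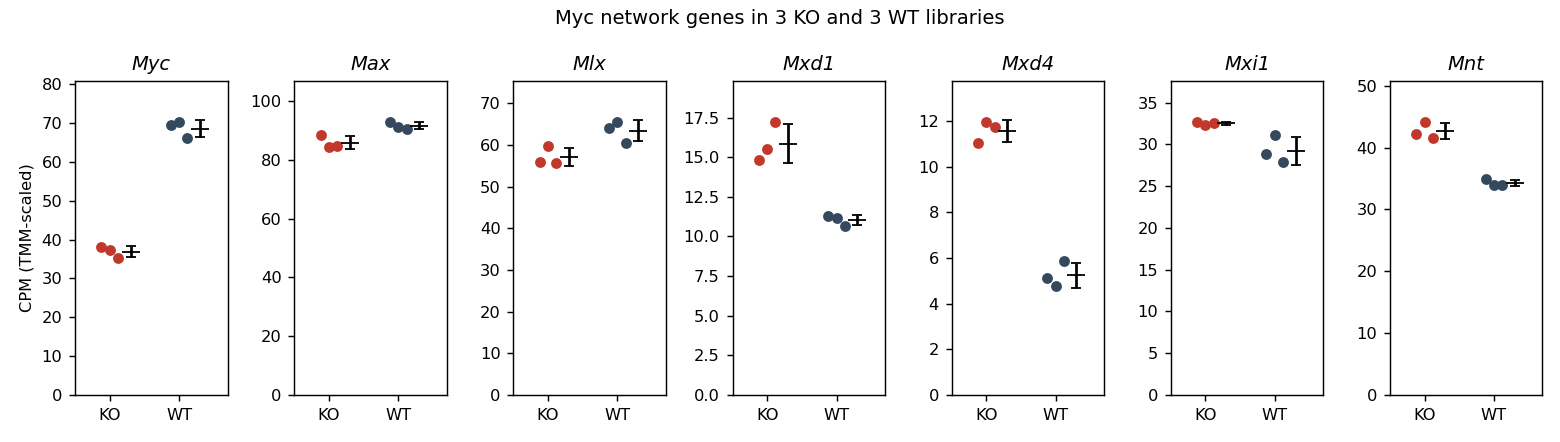
TMM-scaled CPM (y axis, from 0, a scale per panel) of the 7 Myc network genes in each KO library (left) and WT library (right), with the mean and SD beside the points. Myc lies at 35.2 to 38.0 in KO and 66.1 to 70.3 in WT, and the antagonist genes lie higher in KO, of which Mxi1 turned on log2(TPM + 1).

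Of the 7 genes of the RNA polymerase I machinery, 3 fell (42.9%, against 34.9% of all tested genes) and none rose. On log2(TPM + 1), limma called 6 of the 7 lower (85.7%, against 48.9% of all tested genes) and none higher, so the count depends on the scaling. Polr1b, the second-largest catalytic subunit, had 26.6, 25.3 and 24.6 CPM in KO libraries, against 35.7, 33.5 and 35.0 CPM in WT libraries (log2 -0.44, SE 0.0498; edgeR adjusted p = 7.62e-10). Rrn3, the initiation factor that brings the polymerase to the ribosomal DNA promoter, had 44.9, 44.0 and 46.0 CPM in KO libraries, against 59.9, 61.3 and 60.5 CPM in WT libraries (log2 -0.43, SE 0.0384; edgeR adjusted p = 3.14e-12). These 2 genes were low in every KO library. Polr1e, a subunit that acts in initiation and elongation, had 9.75, 8.94 and 10.1 CPM in KO libraries, against 12.4, 11.7 and 10.6 CPM in WT libraries (log2 -0.27, edgeR adjusted p = 0.00553, but 0.0632 with DESeq2), with ranges that nearly touched.

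The largest subunit did not pass the test on counts. Polr1a had 81.3, 83.7 and 85.6 CPM in KO libraries and 84.0, 79.4 and 86.6 CPM in WT libraries (log2 0.00, edgeR adjusted p = 0.923). Ubtf, the architectural factor on ribosomal DNA and the most abundant of these genes per length (55.0 ± 0.919 TPM in KO and 59.6 ± 2.20 TPM in WT; SD, n = 3 each), had 128, 129 and 131 CPM in KO libraries and 125, 132 and 126 CPM in WT libraries (log2 0.02, edgeR adjusted p = 0.559). Both overlapped between the groups in CPM, but on log2(TPM + 1) Polr1a, Ubtf and Taf1d passed as lower (limma adjusted p = 0.0271, 0.0103 and 0.000166). Taf1d, a subunit of the promoter selectivity factor, was at log2 -0.14 and Polr1c, a subunit shared with RNA polymerase III, at log2 0.10, with edgeR adjusted p-values of 0.0685 and 0.0582. For Polr1c the p was 0.0126 without KO replicate 1. The ratio of Polr1b to Polr1a in TPM was 0.459 ± 0.0300 in KO and 0.631 ± 0.0139 in WT (SD, n = 3 each; exact permutation p = 0.1).

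All 5 genes of abundant nucleolar proteins fell, against 34.9% of all tested genes, and 1 of the 5 fell at least 1.5-fold. Ncl, nucleolin, had 466, 487 and 443 CPM in KO libraries, against 620, 635 and 620 CPM in WT libraries (log2 -0.43, SE 0.0233; edgeR adjusted p = 3.41e-18). Nolc1, a chaperone of small nucleolar ribonucleoproteins, had 67.2, 67.9 and 67.2 CPM in KO libraries, against 97.1, 106 and 105 CPM in WT libraries (1.52-fold lower; log2 -0.61, SE 0.0349; edgeR adjusted p = 1.49e-17). For Gnl3, the GTPase nucleostemin, the values were 62.7, 59.8 and 57.9 CPM in KO libraries and 91.7, 85.7 and 88.4 CPM in WT libraries (log2 -0.56, SE 0.0363; edgeR adjusted p = 5.27e-16). Every KO library was below every WT library for these 3 genes. The helicase gene Ddx21 was at log2 -0.30. Npm1, nucleophosmin, carried the most transcripts of the whole set, 614 ± 7.01 TPM in KO and 718 ± 13.5 TPM in WT (SD, n = 3 each), and changed least of the 5. Its CPM were 507, 502 and 499 in KO libraries, against 520, 544 and 533 in WT libraries (log2 -0.08, SE 0.0202; edgeR adjusted p = 0.000571).

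The box C/D particle adds methyl groups to ribosomal RNA, and its scaffold genes fell: Nop58 had 55.0, 50.9 and 57.1 CPM in KO libraries, against 76.6, 81.2 and 75.1 CPM in WT libraries (log2 -0.52, SE 0.0398; edgeR adjusted p = 6.47e-14). Nop56 had 99.5, 95.8 and 99.6 CPM in KO libraries, against 123.1, 125.1 and 119.5 CPM in WT libraries (log2 -0.32, SE 0.0298; edgeR adjusted p = 1.02e-11). Fbl, the methyltransferase fibrillarin, had 86.1, 90.6 and 90.5 CPM in KO libraries and 84.3, 85.8 and 88.0 CPM in WT libraries (log2 0.05, SE 0.0325; edgeR adjusted p = 0.174). Its groups overlapped in CPM, while those of the scaffold genes were apart, and on log2(TPM + 1) Fbl passed as lower (-0.10, limma adjusted p = 0.00421). The TPM ratio of Nop58 to Fbl was 0.312 ± 0.0204 in KO and 0.458 ± 0.0224 in WT (SD, n = 3 each; exact permutation p = 0.1).

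The box H/ACA particle converts uridine to pseudouridine, and its genes moved in both directions. Dkc1, the pseudouridine synthase dyskerin, had 32.5, 29.7 and 31.3 CPM in KO libraries, against 47.0, 46.3 and 47.9 CPM in WT libraries (1.51-fold lower; log2 -0.59, SE 0.0447; edgeR adjusted p = 3.28e-14). Nop10, its small binding partner, had 33.1, 35.0 and 34.9 CPM in KO libraries, against 28.3, 28.4 and 28.2 CPM in WT libraries (log2 0.28, SE 0.0474; edgeR adjusted p = 3.2e-06). The groups were apart for both, in opposite directions. Nhp2 had 77.6, 77.3 and 79.4 CPM in KO libraries and 77.9, 77.3 and 80.1 CPM in WT libraries (log2 -0.01, edgeR adjusted p = 0.879). Its groups overlapped almost fully in CPM, but on log2(TPM + 1) Nhp2 passed as lower (-0.15, limma adjusted p = 0.000244). Gar1 was at 12.2, 13.7 and 13.3 CPM in KO libraries and 11.6, 15.6 and 17.2 CPM in WT libraries (log2 -0.18, edgeR adjusted p = 0.0802). The spread of Gar1 among WT libraries was wide, and without WT replicate 1 its log2 fold change was -0.33 (edgeR adjusted p = 0.000306). The TPM ratio of Dkc1 to Nop10 was 0.149 ± 0.00923 in KO and 0.272 ± 0.00597 in WT (SD, n = 3 each; exact permutation p = 0.1).

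**Figure D3:**
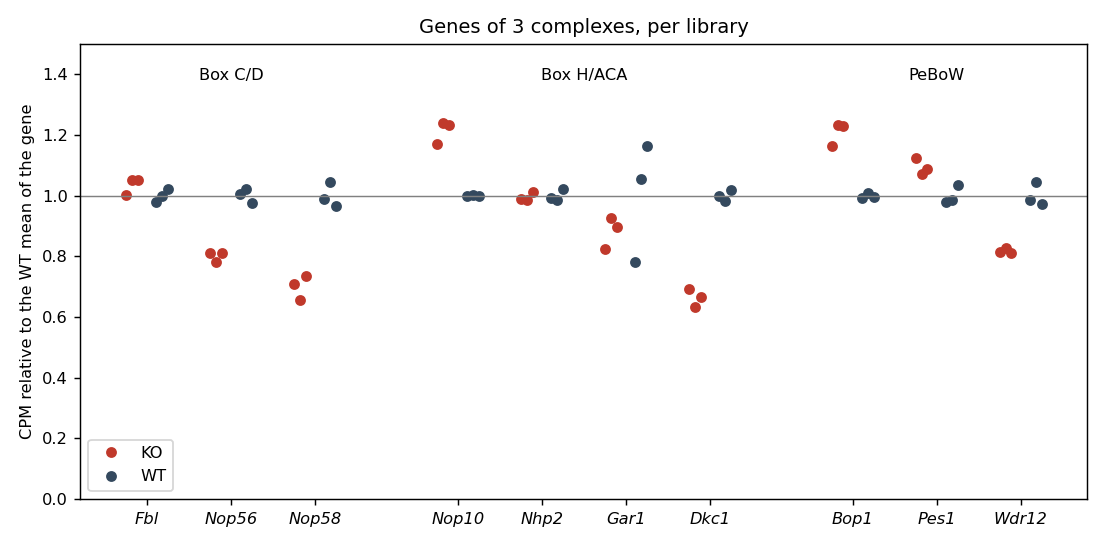
CPM of each library divided by the mean WT CPM of the gene (y axis, no unit) for the box C/D, box H/ACA and PeBoW proteins, KO points left of WT points. Within each complex some genes lie below 1 in KO (Nop58, Dkc1, Wdr12). Nop10 of box H/ACA and Bop1 of PeBoW lie above it, while Fbl of box C/D overlaps between the groups.

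Of 15 small subunit factors 13 fell (86.7%, against 34.9% of all tested genes) and none rose (against 34.4%), with a median log2 fold change of -0.28. At 1.5-fold or more, 1 of the 15 fell (6.67%, against 9.39% of all tested genes). With the coefficient of variation set to 0.1, 7 fell (46.7%, against 18.8%). Wdr43, a factor of the first complex on nascent ribosomal RNA, had 55.4, 50.8 and 53.8 CPM in KO libraries, against 82.9, 79.5 and 80.8 CPM in WT libraries (1.52-fold lower; log2 -0.60, SE 0.0369; edgeR adjusted p = 9.22e-17). Utp15, of the same complex, had 35.99, 36.58 and 37.24 CPM in KO libraries, against 54.3, 48.1 and 54.9 CPM in WT libraries (log2 -0.52, SE 0.0463; edgeR adjusted p = 3.04e-12). The other members of that complex in the set, Utp4 and Heatr1, were at log2 -0.41 and -0.27 and also fell. Tsr1, which acts on the late small subunit precursor, had 66.7, 62.9 and 65.5 CPM in KO libraries, against 99.5, 95.7 and 96.2 CPM in WT libraries (log2 -0.58, SE 0.0337; edgeR adjusted p = 2.26e-17). All KO libraries were below all WT libraries for Wdr43, Utp15 and Tsr1.

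Nop14 and Noc4l, partners in yeast, fell by 0.46 and 0.28 on the log2 scale. Nob1, the nuclease that makes the final cut of small subunit RNA, fell by 0.41, as did Utp20. Rrp12, Bysl and Rrp9, the last a protein of the U3 particle, were at log2 -0.27, -0.19 and -0.21, and the Rrp9 call was lost without KO replicate 2 (edgeR adjusted p = 0.0667). Ltv1, an export factor, was marginal at log2 -0.09 (edgeR adjusted p = 0.0484), and leaving out KO replicate 1 or 3 or WT replicate 1 or 3 ended the call, with adjusted p-values of 0.164, 0.105, 0.0591 and 0.212 in that order. Utp3, the most abundant of this role per length at 53.4 ± 2.41 TPM in KO and 59.6 ± 3.22 TPM in WT (SD, n = 3 each), was at log2 -0.02 (edgeR adjusted p = 0.72). Utp14a was at log2 0.05 (edgeR adjusted p = 0.297, and 0.0492 without WT replicate 2). Neither Utp3 nor Utp14a separated the groups in CPM, but on log2(TPM + 1) Utp3 passed as lower (-0.16, limma adjusted p = 0.013).

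Large subunit factors went both ways, with 5 of 11 lower (45.5%, against 34.9% of all tested genes) and 3 higher (27.3%, against 34.4%). Their median log2 fold change was -0.09. On log2(TPM + 1), 7 were lower (63.6%, against 48.9%) and 1 higher. Noc3l, whose yeast counterpart helps to move precursors out of the nucleolus, had 21.1, 20.4 and 19.9 CPM in KO libraries, against 32.8, 33.2 and 32.3 CPM in WT libraries (1.60-fold lower; log2 -0.68, SE 0.0517; edgeR adjusted p = 4.78e-14). Its partner in yeast, Noc2l, had 93.0, 95.1 and 95.8 CPM in KO libraries and 93.7, 90.8 and 98.0 CPM in WT libraries (log2 0.01, edgeR adjusted p = 0.863). Noc3l was low in every KO library, whereas Noc2l overlapped. Rrs1, which helps to place the 5S particle, had 35.2, 36.8 and 34.1 CPM in KO libraries, against 51.5, 52.6 and 54.0 CPM in WT libraries (log2 -0.58, SE 0.0425; edgeR adjusted p = 1.89e-14). Nop2, a ribosomal RNA methyltransferase, had 62.7, 67.2 and 66.1 CPM in KO libraries, against 87.3, 87.9 and 93.7 CPM in WT libraries (log2 -0.46, SE 0.0359; edgeR adjusted p = 9.87e-14). Both were low in all KO libraries.

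The PeBoW complex, needed for maturation of large subunit RNA, was split. Wdr12 had 46.4, 47.1 and 46.2 CPM in KO libraries, against 56.1, 59.5 and 55.3 CPM in WT libraries (log2 -0.29, SE 0.0397; edgeR adjusted p = 5.76e-08). Bop1 had 78.5, 83.2 and 83.0 CPM in KO libraries, against 67.0, 68.2 and 67.3 CPM in WT libraries (log2 0.27, SE 0.0343; edgeR adjusted p = 9.73e-09). Wdr12 was low and Bop1 high in every KO library. Pes1 was higher on the count scale (log2 0.13, edgeR adjusted p = 9.92e-05) but stood at -0.01 on log2(TPM + 1). The same held for Rrp1, the most abundant large subunit factor per length at 115 ± 1.23 TPM in KO and 119 ± 4.48 TPM in WT (SD, n = 3 each), which was at log2 0.10 (edgeR adjusted p = 0.00236) and at -0.04 on log2(TPM + 1). Ebna1bp2 fell by 0.21 on the log2 scale, and Nip7 and Nop16 were at log2 -0.09 and 0.04 with edgeR adjusted p-values of 0.0524 and 0.406. The TPM ratio of Wdr12 to Bop1 was 0.450 ± 0.0159 in KO and 0.653 ± 0.0225 in WT (SD, n = 3 each; exact permutation p = 0.1).

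Outside the Myc network, then, 29 of 45 genes were lower in KO, as Myc was (64.4%, against 34.9% of all tested genes). Another 4 rose (8.89%, against 34.4%), namely Nop10, Bop1, Pes1 and Rrp1, of which Pes1 and Rrp1 turned on log2(TPM + 1) as given above. At 1.5-fold or more, 4 of the 45 fell (8.89%) and none rose, against 9.39% and 8.40% of all tested genes. The fallen genes lay 1.06-fold to 1.60-fold lower, all smaller steps than the 1.86-fold of Myc. Summed over the 45 genes, 2431 to 2450 TPM were found in KO libraries, against 2935 to 2990 TPM in WT libraries. Scaling shifts all genes together: on log2(TPM + 1) the median of all tested genes was -0.12, and the 52 genes had a median of -0.33 there, or -0.21 less the median of all genes. On that scale limma called 40 of the 52 lower and 5 higher, against 48.9% and 20.8% of all tested genes (69.8% in all).

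Sequence and position shared beyond the names were described next. The 12 genes with a promoter E-box had a median log2 fold change of -0.28, with 9 lower and 3 higher, and the 34 without it a median of -0.21, with 19 lower and 4 higher. A further shared feature was position inside the gene. By RefSeq coordinates, 8 of the 52 genes (15.4%) hold small nucleolar RNA genes within their bounds, against 2.41% of 11789 tested genes with coordinates. They were Taf1d, Ncl, Gnl3, Nop56, Nop58, Dkc1, Wdr43 and Tsr1. Of these host genes, 7 fell and none rose, with a median of -0.54, and Taf1d did not pass. The 44 other genes had a median of -0.16, with 25 lower and 8 higher. Over all 284 tested host genes in the series the median was -0.04, with 116 lower and 97 higher. For the related sequence CACGCG or CGCGTG, the 16 genes that hold it had a median of 0.00 (0.0003), with 5 lower and 3 higher, and the 30 without it a median of -0.30, with 23 lower and 4 higher. The features were chosen with the results known, so these are descriptions with no test.

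**Figure D4:**
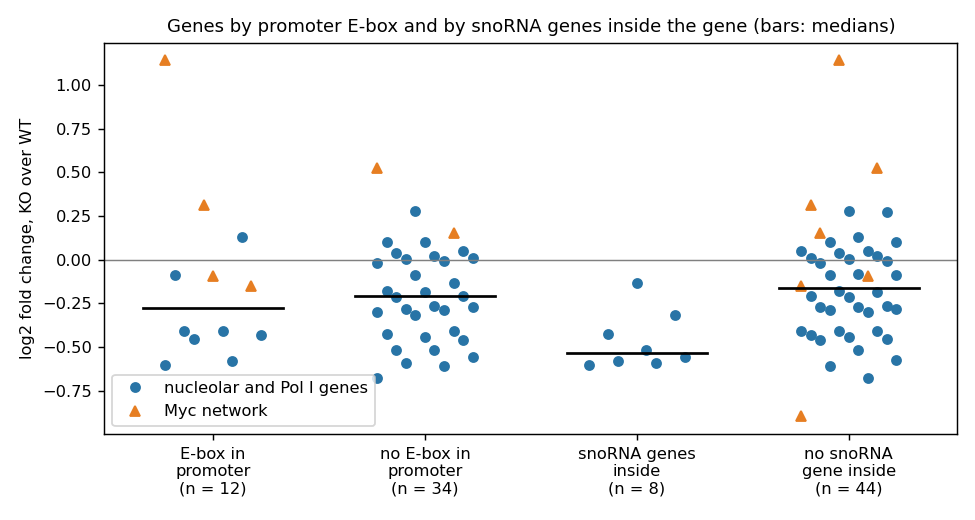
Log2 fold change (KO over WT, y axis) of each gene, by whether its promoter window holds CACGTG (12 with, 34 without) and by whether small nucleolar RNA genes lie within its bounds (8 with, 44 without). Horizontal bars are medians, at -0.28, -0.21, -0.54 and -0.16, and triangles mark Myc network genes.

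Further genes of the same pathways, from lists that hold none of the 52, were read from the same fit. These lists too were chosen with earlier results of these data known, so they are no independent check. Of 42 other small subunit factors 26 were lower and 3 higher in KO (median -0.18), and of 52 other large subunit factors 38 were lower and 4 higher (median -0.22). Wdr75, of the first complex on ribosomal RNA, averaged 33.1 ± 1.33 CPM in KO and 49.0 ± 3.86 CPM in WT (SD, n = 3 each; log2 -0.57, edgeR adjusted p = 1.61e-12). Mak16, a large subunit factor, averaged 39.8 ± 2.02 CPM in KO and 67.9 ± 1.62 CPM in WT (SD, n = 3 each), and was 1.704-fold lower (log2 -0.77, edgeR adjusted p = 1.4e-18). Urb2, Nol8, Pwp2 and Nol11 were at log2 -0.68, -0.52, -0.44 and -0.42, and all fell. Of 14 genes of the RNA exosome, which trims ribosomal RNA precursors, 9 were lower (64.3%) and 2 higher (14.3%). Their median was -0.12, with the nuclease gene Dis3 at log2 -0.56, Exosc3 at -0.38 and Exosc5 at 0.49.

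Of 13 other RNA polymerase I genes, 3 were lower (23.1%, against 34.9% of all tested genes) and 2 higher (15.4%, against 34.4%). Their median was -0.0002, with Taf1c at log2 -0.33, Twistnb at -0.31 and Polr2l at 0.18. On log2(TPM + 1), 9 were lower (69.2%, against 48.9% of all tested genes) and none higher (against 20.8%). Of 22 RNA polymerase III genes, 9 were lower (40.9%, near the share of all tested genes) and 3 higher (13.6%), with a median of -0.07. They were led by the initiation factor gene Bdp1 at log2 -0.61, Polr3gl at 0.47 and Polr3d at -0.46. On log2(TPM + 1), 15 of the 22 were lower (68.2%) and 2 higher. Among 14 tested genes of 16 that partner or regulate Myc, 6 were lower and 2 higher (median -0.11), and 12 were lower and 1 higher on log2(TPM + 1). The mitotic kinase gene Aurka and Cip2a, whose products stabilise MYC proteins in human cells, were at log2 -1.18 and -1.36, and Fbxw7, whose product marks Myc for degradation, was at log2 -0.65.

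Of 42 Myc targets outside the ribosome, 21 were lower and 16 higher (38.1%; median -0.05), against 34.9% lower and 34.4% higher of all tested genes. On log2(TPM + 1), 26 were lower (61.9%, against 48.9% of all tested genes) and 3 higher (against 20.8%). Odc1, the rate-limiting enzyme of polyamine synthesis, averaged 89.2 ± 0.257 CPM in KO and 149 ± 1.48 CPM in WT (SD, n = 3 each), and was 1.67-fold lower (log2 -0.74, edgeR adjusted p = 6.21e-23). Shmt1, of folate metabolism, was at log2 -0.85. Tfrc, the transferrin receptor gene, went the other way with 557 ± 14.2 CPM in KO and 272 ± 9.30 CPM in WT (SD, n = 3 each; log2 1.03, edgeR adjusted p = 8.17e-30). Over the 7 pathway lists, 112 of 199 tested genes were lower (56.3%, against 34.9% of all tested genes) and 32 higher (16.1%, against 34.4%). On log2(TPM + 1) 151 were lower (75.9%, against 48.9%) and 10 higher (against 20.8%). At 1.5-fold or more, 11 of the 199 fell (5.53%, against 9.39%) and 2 rose (1.01%, against 8.40%). With the coefficient of variation set to 0.1, 48 fell (24.1%, against 18.8%) and 7 rose (3.52%, against 18.4%). The cytosolic ribosomal protein genes, the products assembled by these factors, are given for comparison: 4 of 81 were lower and 70 higher (median 0.19), and 17 were lower and 32 higher on log2(TPM + 1) (median 0.04).

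**Figure D5:**
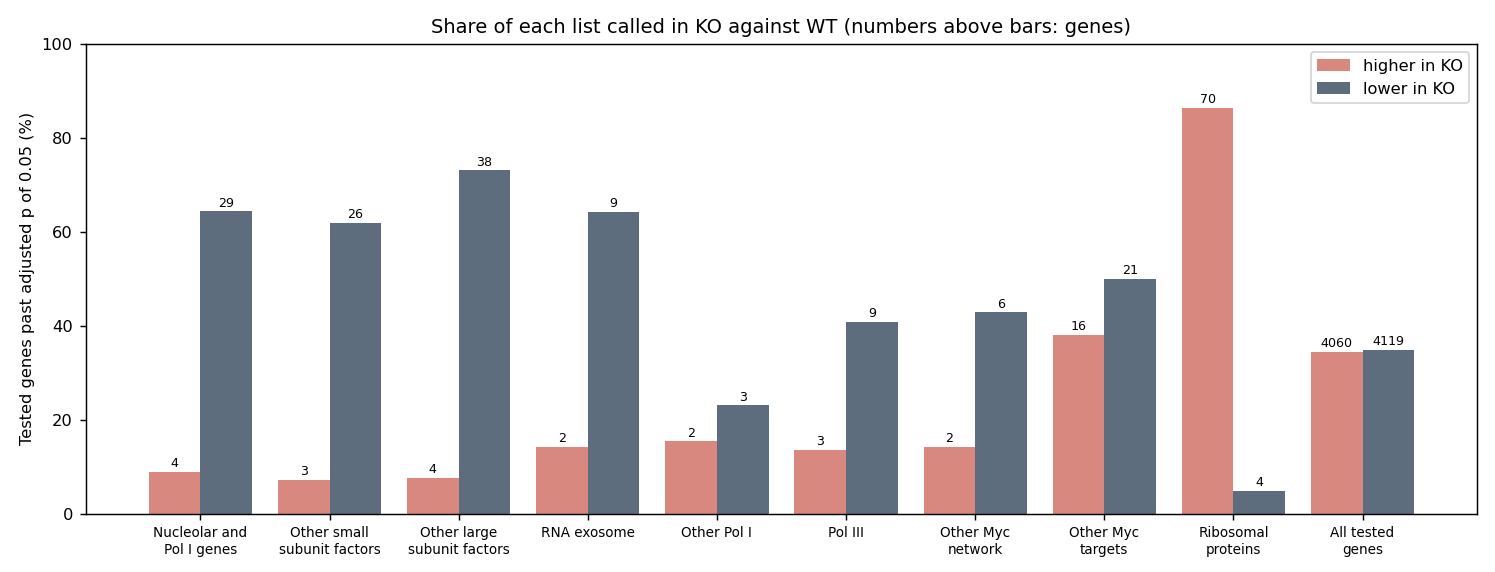
Percentage of tested genes (y axis) that were higher or lower in KO at an adjusted p of 0.05, for the 45 nucleolar and RNA polymerase I genes, 7 further pathway lists, ribosomal protein genes and all tested genes, with gene counts above the bars. The small and large subunit lists stand at 26 and 38 lower genes (61.9% and 73.1%) and ribosomal protein genes at 70 higher genes (86.4%). All genes stand at nearly equal shares, 34.9% lower and 34.4% higher.

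Genes of proliferation and of other cell types moved with the same groups. Of 24 proliferation genes, 20 were lower (83.3%, against 34.9% of all tested genes) and 4 higher (16.7%, against 34.4%). Their summed level was 1583 to 1597 CPM in KO libraries and 2429 to 2436 CPM in WT libraries, with Ccnb2 3.98-fold, Ube2c 2.81-fold and Ccnb1 2.77-fold lower. All 11 fibroblast markers were lower, summing to 17.8 to 20.7 CPM in KO libraries and 96.5 to 101 CPM in WT libraries. Neutrophil markers (7 of 8 in the table; 3 higher, 1 lower) summed to 138 to 139 CPM in KO libraries and 58.2 to 61.3 CPM in WT libraries, mostly S100a8 and Csf3r, with Elane at 0.0680 and 0.0489 CPM in KO and WT. Lymphocyte markers (10 of 11; 2 higher) summed to 17.3 to 18.5 CPM in KO libraries and 8.73 to 9.47 CPM in WT libraries, with Cd3e at 0.136 and 0.0653 CPM in KO and WT. Endothelial markers (5 of 6; 1 higher, 2 lower) summed to 64.2 to 66.7 CPM in KO libraries and 76.3 to 79.4 CPM in WT libraries. Epithelial markers (6 of 9; Cdh1 lower) summed to 0.866 to 1.33 CPM in KO libraries and 2.31 to 2.63 CPM in WT libraries, with Krt8 listed at 0 in every WT library. The part of these genes in the falls described above was not tested.

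As to the sorted cell type, general macrophage markers were abundant, with 32480 to 33250 CPM summed over 8 genes in KO libraries and 27630 to 28780 CPM in WT libraries. Itgam, one of these 8, averaged 1766 CPM in KO and 1328 CPM in WT. Of 12 alveolar macrophage markers, 10 are in the table (Car4 and Krt79 are not) and 8 were tested, with 3 higher and 4 lower. Their summed level was 1286 to 1328 CPM in KO libraries and 396 to 411 CPM in WT libraries. Marco was the largest term of that sum, with 1137 ± 22.8 CPM in KO and 172 ± 2.17 CPM in WT (SD, n = 3 each). The higher sum in KO thus follows Marco, while Atp6v0d2, Itgax, Pparg and Siglecf were the 4 lower markers. Atp6v0d2, Itgax, Fabp4 and Pparg were also expressed, at 60.8, 43.8, 31.5 and 13.1 CPM in KO and 119, 53.0, 29.4 and 19.0 CPM in WT. Besides Marco, the higher markers were Chil3, at 13.9 CPM in KO and 6.94 CPM in WT, and Trim29, at 1.63 and 0.425 CPM. Siglecf, the surface lectin of these cells, was low, and Plet1 and Fabp1 were near 0. Siglecf was at 1.34 ± 0.154 CPM in KO and 2.06 ± 0.381 CPM in WT (SD, n = 3 each), and Fabp1 had no count in any KO library and 0.0164 CPM on average in WT libraries. The name alveolar macrophage is taken from the labels, and these mixed markers do not settle the cell type.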

How the data were processed

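The 6 libraries, 3 KO and 3 WT, were made from polyA-selected RNA per the labels' protocols. The submitters' processing notes name HISAT, Bowtie2 and GRCm38.p6 without saying what each did. How reads were counted was not stated. The authors deposited expected counts, estimated reads per gene that are not whole for some genes (4 of the 52 here: Bysl, Tsr1, Wdr12 and Noc2l), so they were rounded first. They also deposited FPKM and TPM values, per the file headers.

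In R 4.3.3, KO was set against WT by the quasi-likelihood test of edgeR 4.0.16 over 11817 genes, after TMM scaling and filterByExpr, with group as the sole term. Strand use and the treatment of reads shared with pseudogenes are not stated, so genes with close copies or overlapping neighbours are uncertain. Alternatives used DESeq2 1.42.0, limma 3.58.1, other scalings and filters, and single libraries left out. Ratios used exact permutation tests (SciPy 1.17.1). The test was first tested on simulated data. The 52 genes and all lists were chosen with earlier results of these data known. All Myc network genes are named, and in other roles the 3 largest called changes and the most abundant gene in full. Of each other list, the 3 largest called changes at 5 TPM or more were eligible. The ribosomal protein list and the fuller accounts of Noc2l, Polr1a, Gar1, Wdr12 and Bop1 were added after values were seen, as were ratios and host genes of small nucleolar RNAs.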

Additional observations from a re-analysis of the deposited data

How the results depend on the processing

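Myc kept its direction and its call in every alternative run. The number of lower genes among the 52, 32 in all, was 21 when the coefficient of variation was set to 0.1 and 5 at 1.5-fold or more. The number of higher genes, 8, was 5 with limma on log2(FPKM + 1), on log2(FPKM + 0.1) and on log2(TPM + 1) with or without the low-value filter, 3 with the assumed coefficient and 1 at 1.5-fold or more. The median of the 52, -0.21, was -0.27 with total-count scaling, -0.25 on log2(FPKM + 1), -0.27 on log2(FPKM + 0.1) and -0.33 on log2(TPM + 1) with or without the filter. Over the 7 further lists, the 32 higher genes became 20 with total-count scaling, 10 on log2(TPM + 1) and 7 with the assumed coefficient (3.52%, against 18.4% of all tested genes). The 112 lower genes became 48 with that coefficient (24.1%, against 18.8%). Leaving out each library gave 31 to 32 lower and 7 to 9 higher of the 52, a median of -0.24 to -0.20, and 104 to 109 lower and 29 to 35 higher in the lists. The cause was not tested.

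Same-numbered libraries deviated together only weakly (correlations of 0.0534, 0.0280 and 0.0295), so the number was not taken as a pairing, though every library correlated best with its own number, a hint from the data and not the design. With it as a replicate block, the 52 genes gave 33 lower, 9 higher and a median of -0.21, and Polr1c and Gar1 passed (adjusted p = 0.0469 and 0.0276). Over the 52 genes, 40 kept their direction in every alternative. The others lay near 0 and turned as follows. On log2(TPM + 1), with or without filter, Mxi1 was -0.03 (-0.032), Polr1a -0.12, Polr1c -0.0392, Ubtf -0.11, Fbl -0.10, Utp14a -0.0844, Nop16 -0.0622, Pes1 -0.0111, Rrp1 -0.0388 and Noc2l -0.13. With total-count scaling Polr1a was -0.0529, Ubtf -0.0377, Fbl -0.0074, Utp14a -0.0055, Nop16 -0.0193 and Noc2l -0.0501. On log2(FPKM + 1) and log2(FPKM + 0.1), Polr1a was -0.0372 and -0.0394, Ubtf -0.0342 and -0.0349, Fbl -0.0213 and -0.0215, Utp14a -0.0050 and -0.0052, and Noc2l -0.0483 and -0.0494. Upper-quartile scaling gave Polr1a -0.0039 and Noc2l -0.0012, and no filter gave Nhp2 0.0035. Leave-one-out values spanned -0.029 to 0.035 for Polr1a, -0.017 to 0.012 for Nhp2, -0.065 to 0.017 for Utp3 and -0.018 to 0.039 for Noc2l. The centring on the median of all genes was added after the data were seen.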
